A study of Drosophila melanogaster with 36 samples.

Results

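The Hsp70 and Hsp90 chaperones, their co-chaperones and the mitochondrial chaperonin were followed as 9 genes taken from the 14010 genes of the deposited table. The genes were chosen by identifier and function, and for each one the row with the most reads was kept. They were Hsp83 (CG1242), Hop (CG2720), Hsc70-4 (CG4264), Hsp68 (CG5436), DnaJ-1 (CG10578), Hsc70Cb (CG6603), Hsc70-3 (CG4147), Hsc70-5 (CG8542) and Hsp60 (CG12101). RefSeq now names Hop, Hsc70Cb and Hsp60 as Stip1, Hsp110 and Hsp60A. The table describes CG2720 as hopscotch, which is the name of another gene, a JAK kinase, and CG2720 is treated here as the organising protein of Hsp70 and Hsp90. All 9 genes passed the filter on low reads, and no other gene had the same read profile as any of them.

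Hsp70 proteins bind unfolded stretches of protein and release them in a cycle driven by ATP. J-domain proteins such as DnaJ-1 start the cycle by stimulating ATP hydrolysis, and exchange factors such as Hsc70Cb, a member of the Hsp110 family, restart it by letting ADP leave. Hop bridges Hsp70 and Hsp90 and hands clients such as kinases and receptors to Hsp90, which is Hsp83 in flies. Hsc70-3 works in the endoplasmic reticulum, and Hsc70-5 and the barrel-shaped Hsp60 work in mitochondria. Hsc70-4 is the constitutive cytosolic Hsp70, which in neurons also strips clathrin from vesicles, whereas Hsp68 is a heat-inducible one.

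Flies of the wild-type Canton-S strain (Drosophila melanogaster) were kept at 18, 25 or 29°C under light and dark cycles for some days, and their heads were collected at 6 times of day, written as Zeitgeber time (ZT, in hours from lights on). The sex and age of the flies are not given in the sources used here. The labels describe 36 libraries, 2 for each combination of temperature and time, but the table holds 1 column for each of the 18 combinations. The labels name the ZT19 samples zt18. Polyadenylated RNA was read at its 3′ end, and each value is a number of reads times 1 scaling step per column, called scaled reads here. The table thus holds no replicate of a time point, so temperatures were compared over their 6 time points, and each SD is over those 6 time points. Adjusted p-values come from limma fitted over the 8791 genes that passed the filter, with temperature and time point as factors, and a gene was called at an adjusted p under 0.05.

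The columns held between 736538 and 2750250 reads on genes. Photoreceptor markers had reads in all columns, with summed levels of 22326 to 27225 scaled reads in the 18°C columns, 27988 to 37128 in those at 25°C and 32418 to 40345 in those at 29°C (5 of 5 markers). Within this list the markers moved in different ways. trp, norpA and Arr2 were called higher at 29°C than at 25°C (0.46, 0.63 and 0.52 on the log2 scale, limma adjusted p = 0.000316, 0.00456 and 2.84e-05), whereas ninaE and ninaC had -0.26 each and were not called (limma adjusted p = 0.0873 and 0.0533). For 18°C against 25°C, ninaE was called lower (-0.59, limma adjusted p = 0.000274) and the other 4 were not called. The neuronal markers had reads (4 of 4), with sums of 86.7 to 175 at 18°C, 106 to 242 at 25°C and 65.7 to 204 at 29°C. Of these markers only Syt1 was called lower at 29°C than at 25°C (-0.86, limma adjusted p = 0.00111). In that comparison nSyb had 0.33, brp -0.09 and elav -0.87, and none was called (limma adjusted p = 0.317, 0.938 and 0.426). elav took 3 reads or fewer in 10 columns. Flight muscle sums (4 of 4 markers with reads) were 341 to 469 at 18°C, 393 to 3732 at 25°C and 229 to 350.1 at 29°C, below every 25°C column. Mf alone had 337 to 461 at 18°C, 381 to 415 at 25°C and 215 to 310 at 29°C. Mf was called lower at 29°C than at 25°C (-0.58, limma adjusted p = 9.96e-05) and than at 18°C (-0.50, limma adjusted p = 0.000261). Act88F, fln and TpnC4 were not called in either comparison. They had -0.66, -0.97 and -0.66 for 29°C against 25°C. For 29°C against 18°C they went the other way from Mf, with 0.67, 0.67 and 0.69. The part of these markers in the results below was not tested. In bulk heads, fewer cells of a type and less RNA per cell cannot be told apart. The ZT19 column at 29°C stood apart by its testis (180), accessory gland (143) and midgut (1110) marker sums. The ZT7 column at 25°C stood apart by its midgut (4572) and flight muscle (3732) sums. At 18°C the highest sums of these lists were 11.2 for testis, 0.929 for accessory gland and 13.1 for midgut.

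The 9 genes together took 0.162% to 0.193% of the reads on genes at 18°C, 0.213% to 0.274% at 25°C and 0.216% to 0.301% at 29°C. Thus every 18°C column was below every column of the other temperatures in this summed share. The sum is weighted by Hsc70-4 (36647 reads over all columns) and Hsp60 (15110), against 6171 or fewer for each other gene. Only Hsc70-4 had all its 18°C columns below all its 25°C columns, so the share does not describe the 9 genes one by one. A share of reads also scales columns to equal library size, unlike the deposited values. Between 29°C and 25°C, 3 of the 9 genes were called, against 17.3% of all genes tested. Hsp60 and Hop were higher at 29°C (10.6% of all genes) and DnaJ-1 was lower (6.69% of all genes). Between 18°C and 25°C, 1 of the 9 was called, against 13.4% of all genes. It was Hsc70-4, which was lower at 18°C (5.32% of all genes). Between 29°C and 18°C, 6 of the 9 were called, against 27.9% of all genes. Of these, 5 were higher at 29°C (14.7% of all genes) and DnaJ-1 was lower (13.3% of all genes). Without both columns that stood apart, Hop was lost from the first comparison, leaving 2 of the 9, and DnaJ-1 from the last, leaving 5, while the 1 call for 18°C against 25°C stayed. The columns of a pair of temperatures did not overlap at all for Hsp60 and DnaJ-1 between 29°C and 25°C (8.01% of all genes), for Hsc70-4 between 18°C and 25°C (6.44%), and for Hsp60, Hop and Hsc70-4 between 29°C and 18°C (12.7%).

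**Figure D1:**
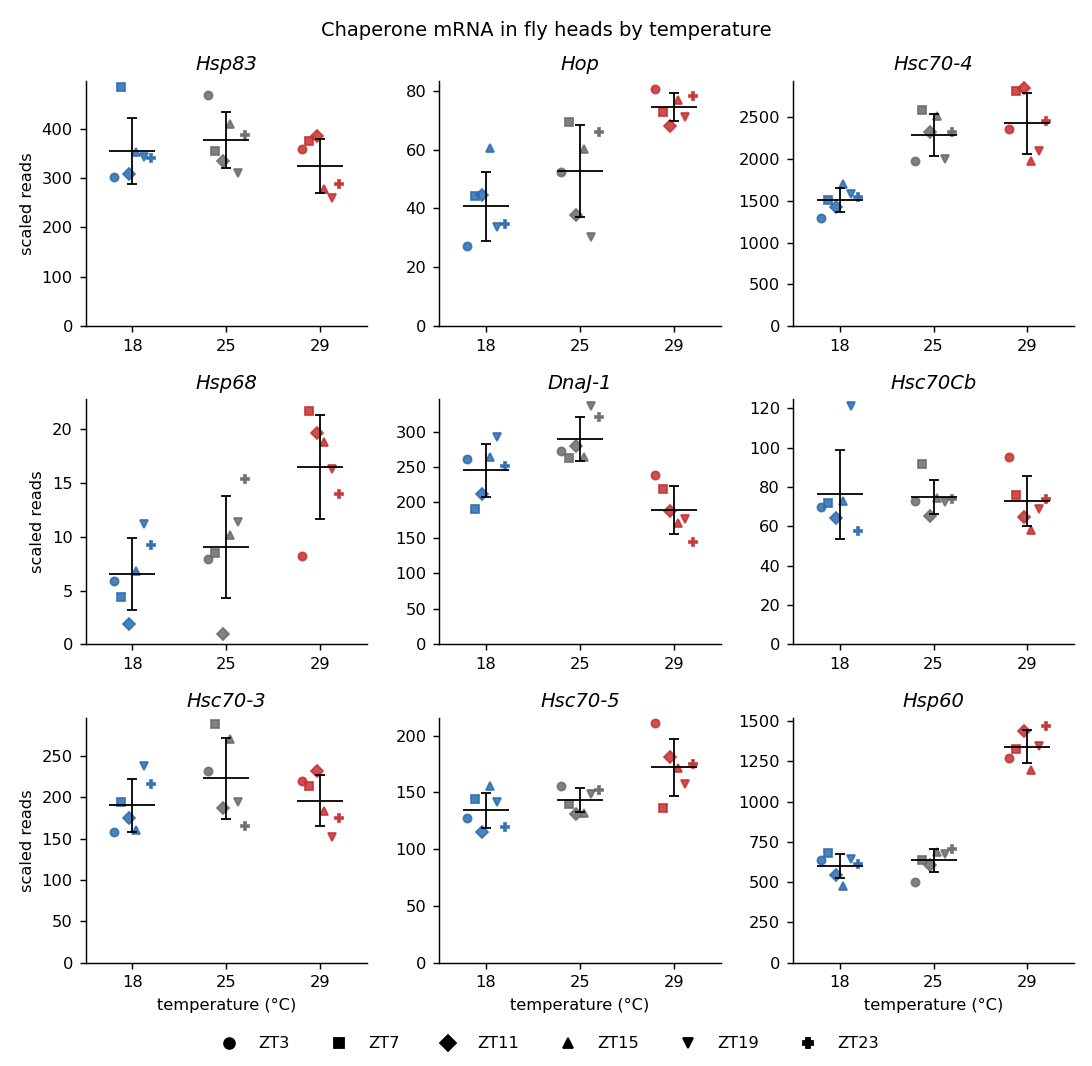
Scaled reads of the 9 genes (vertical axes) at the 3 temperatures (horizontal axes). Each symbol is 1 time point, and black lines are the mean ± SD over the 6 time points. Hsp60 lies between 1196 and 1469 at 29°C, above all columns of the other temperatures, and Hsc70-4 lies between 1291 and 1699.8 at 18°C, below them.

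Hsp90 and its link to Hsp70 were considered first. Hsp83 (3L, 3193027–3197061) had 302 to 486 scaled reads at 18°C (median 342), 310.3 to 468 at 25°C (median 372) and 259 to 386 at 29°C (median 323). The 3 ranges overlapped, and the highest value of all was the ZT7 column at 18°C. Hsp83 was not called in any comparison. Its log2 difference was -0.22 between 29°C and 25°C (95% interval -0.47 to 0.02, limma adjusted p = 0.219). For 18°C against 25°C it was -0.09 (-0.34 to 0.16, limma adjusted p = 0.681). For 29°C against 18°C it was -0.13 (-0.38 to 0.11, limma adjusted p = 0.447). When columns were scaled to equal library size, a setting that moved the median of all genes between 29°C and 25°C to -0.13, Hsp83 was called lower at 29°C, with a log2 difference of -0.41 (limma adjusted p = 0.0269).

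Hop (2L, 295109–297413), the bridge between the Hsp70 and Hsp90 machines, had 27.2 to 60.4 scaled reads at 18°C (median 39.4), 30.4 to 69.5 at 25°C (median 56.3) and 68.1 to 80.7 at 29°C (median 74.8). Every 29°C column was above every 18°C column, whereas 29°C and 25°C overlapped by 1 column, the ZT7 column at 25°C. Hop was higher at 29°C than at 18°C, with a log2 difference of 0.90 (SE 0.19, limma adjusted p = 0.000697), and this call held under all 31 alternatives run. It was also higher at 29°C than at 25°C, at 6 of 6 time points, by 0.55 (SE 0.19, limma adjusted p = 0.0433). This second call was close to the threshold and was lost in 15 of 31 alternatives. The 31 include leaving out each 18°C column, which does not enter this difference. The adjusted p was 0.205 with library size scaling and 0.0710 with TMM scaling in limma, 0.0746 in edgeR and 0.0990 in DESeq2. Among the others, leaving out the ZT11, ZT15 or ZT19 column at 25°C gave a limma adjusted p of 0.132, 0.0858 and 0.136. Leaving out the ZT3, ZT11, ZT19 or ZT23 column at 29°C gave 0.117, 0.0773, 0.140 and 0.0730. Without both columns that stood apart it was 0.134. The difference between 29°C and 25°C thus depended on single columns, the scaling and the tool. Hop took only 15 to 112 reads per column. Its spread was 28.7% of the mean at 18°C and 29.9% at 25°C, against 17.9% and 13.3% from counting reads alone. At 29°C the spread was 6.36%, below the 12.5% from counting. Between 18°C and 25°C Hop was not called (-0.35, 95% interval -0.74 to 0.04, limma adjusted p = 0.240).

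Among the cytosolic Hsp70 genes, Hsc70-4 (3R, 11068367–11072339) took 672 to 3715 reads per column. It had 1291 to 1699.8 scaled reads at 18°C (median 1529), 1978 to 2584 at 25°C (median 2324) and 1982 to 2859 at 29°C (median 2408). The 18°C columns were all below the other 12 columns, and 29°C and 25°C overlapped over most of their ranges. Hsc70-4 was lower at 18°C than at 25°C at 6 of 6 time points, with a log2 difference of -0.60 (SE 0.09, limma adjusted p = 8.44e-05). It was higher at 29°C than at 18°C, with a difference of 0.68 (SE 0.09, limma adjusted p = 5e-06). Both calls held under all 31 alternatives. Between 29°C and 25°C its log2 difference was 0.08 (95% interval -0.11 to 0.27, limma adjusted p = 0.615), and scaling to equal library size turned the value to -0.11.

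Hsp68 (3R, 19880802–19883029), the heat-inducible cytosolic Hsp70, was close to the detection limit, with 1 to 23 reads per column. It had 1.86 to 11.2 scaled reads at 18°C (median 6.37), 0.921 to 15.3 at 25°C (median 9.33) and 8.24 to 21.7 at 29°C (median 17.5). The ranges overlapped in all comparisons, between 29°C and 18°C only through the ZT3 column at 29°C. Hsp68 was higher at 29°C than at 18°C at 6 of 6 time points, with a log2 difference of 1.29 (SE 0.41, limma adjusted p = 0.0189). This call was lost without the ZT7 column at 18°C (limma adjusted p = 0.0533) or without the ZT7 or ZT11 column at 29°C (0.0530 and 0.0979). For 29°C against 25°C the difference was 0.98 (95% interval 0.15 to 1.82, limma adjusted p = 0.102), and for 18°C against 25°C it was -0.31 (-1.14 to 0.53, limma adjusted p = 0.687). The annotated 3′ end of Hsp68 overlaps that of CG6000 (19880140–19880822), which lies on the other strand. CG6000 averaged 33.9 at 18°C, 43.3 at 25°C and 36.4 scaled reads at 29°C, and it was not called in any comparison. Its log2 differences were -0.27 for 29°C against 25°C, -0.36 for 18°C against 25°C and 0.09 for 29°C against 18°C (limma adjusted p = 0.401, 0.257 and 0.776). Whether strand was used in counting is not stated, so reads of the shared stretch are uncertain.

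DnaJ-1 (3L, 5743122–5745330), a J-domain partner of Hsp70, had its lowest values at 29°C. It had 191 to 292 scaled reads at 18°C (median 256), 263 to 336 at 25°C (median 276) and 145 to 239 at 29°C (median 182). All 29°C columns were below all 25°C columns, whereas the 18°C range overlapped both. DnaJ-1 was lower at 29°C than at 25°C at 6 of 6 time points, with a log2 difference of -0.62 (SE 0.12, limma adjusted p = 0.000832), and this held under all 31 alternatives. It was also lower at 29°C than at 18°C, with a difference of -0.37 (SE 0.12, limma adjusted p = 0.0255), a call lost in 9 of 31 alternatives. Leaving out the ZT15, ZT19 or ZT23 column gave a limma adjusted p of 0.0618, 0.105 and 0.105 at 29°C, and of 0.0772, 0.0707 and 0.0601 at 18°C. Without both columns that stood apart it was 0.132. Between 18°C and 25°C DnaJ-1 was not called (-0.25, 95% interval -0.50 to 0.01, limma adjusted p = 0.209). DnaJ-1 averaged 245 ± 37.0 at 18°C, 289 ± 31.0 at 25°C and 189 ± 34.1 scaled reads at 29°C (SD, n = 6), so that its highest mean was at 25°C.

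Hsc70Cb (3L, 14030124–14036659), the exchange factor, had 57.6 to 121 scaled reads at 18°C (median 70.9), 65.4 to 91.5 at 25°C (median 73.3) and 57.98 to 95.5 at 29°C (median 71.5). The ranges overlapped throughout. It was not called in any comparison. The log2 difference of 29°C against 25°C was -0.05 (95% interval -0.38 to 0.28, limma adjusted p = 0.871). That of 18°C against 25°C was -0.01 (-0.34 to 0.32, limma adjusted p = 0.977). For 29°C against 18°C it was -0.04 (-0.37 to 0.29, limma adjusted p = 0.883). The first of these intervals spans 0.767 to 1.21 times the level at 25°C.

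In the endoplasmic reticulum, Hsc70-3 (X, 11695729–11701212), the fly BiP, had 158 to 238 scaled reads at 18°C (median 185), 166 to 289 at 25°C (median 213) and 152 to 231 at 29°C (median 199). It was not called in any comparison. The log2 difference of 29°C against 25°C was -0.17 (95% interval -0.47 to 0.12, limma adjusted p = 0.463), and that of 18°C against 25°C was -0.21 (-0.51 to 0.08, limma adjusted p = 0.360). The difference of 29°C against 18°C was 0.04 (-0.25 to 0.34, limma adjusted p = 0.858). All ranges overlapped.

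In mitochondria, Hsp60 (X, 11002506–11006341), which folds proteins inside a closed chamber, had 476 to 681 scaled reads at 18°C (median 626), 503 to 706 at 25°C (median 654) and 1196 to 1469 at 29°C (median 1335). All 29°C columns were above all other columns. Hsp60 averaged 599 ± 75.8 at 18°C, 635 ± 73.3 at 25°C and 1341 ± 103 scaled reads at 29°C (SD, n = 6). It was higher at 29°C than at 25°C at 6 of 6 time points, with a log2 difference of 1.08 (SE 0.09, limma adjusted p = 3.83e-08), a 2.12-fold difference (95% interval 1.85 to 2.42). By p-value it ranked 6 among the 8791 genes tested. It was higher at 29°C than at 18°C, with a difference of 1.17 (SE 0.09, limma adjusted p = 1.21e-09). The difference between 29°C and 25°C held under all 31 alternatives, from 0.89 with library size scaling to 1.15, and was 1.08 without both columns that stood apart. Between 18°C and 25°C the log2 difference was -0.08 (95% interval -0.28 to 0.11, limma adjusted p = 0.618).

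Hsc70-5 (2R, 10140103–10143697), the mitochondrial Hsp70, had 115.2 to 156 scaled reads at 18°C (median 135), 131 to 156 at 25°C (median 144) and 136 to 211 at 29°C (median 173). The ranges overlapped through the ZT7 column at 29°C. Hsc70-5 was higher at 29°C than at 18°C at 5 of 6 time points, with a log2 difference of 0.35 (SE 0.12, limma adjusted p = 0.0305). That call was lost in 10 of 31 alternatives. Leaving out the ZT3, ZT11 or ZT23 column gave a limma adjusted p of 0.0942, 0.0940 and 0.0638 at 29°C, and of 0.0893, 0.0846 and 0.0767 at 18°C. Library size scaling gave 0.0689, edgeR 0.0647 and DESeq2 0.0826. The call thus depended on single columns, the scaling and the tool. For 29°C against 25°C the difference was 0.25 (95% interval 0.01 to 0.50, limma adjusted p = 0.159). For 18°C against 25°C it was -0.10 (-0.35 to 0.15, limma adjusted p = 0.660).

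**Figure D2:**
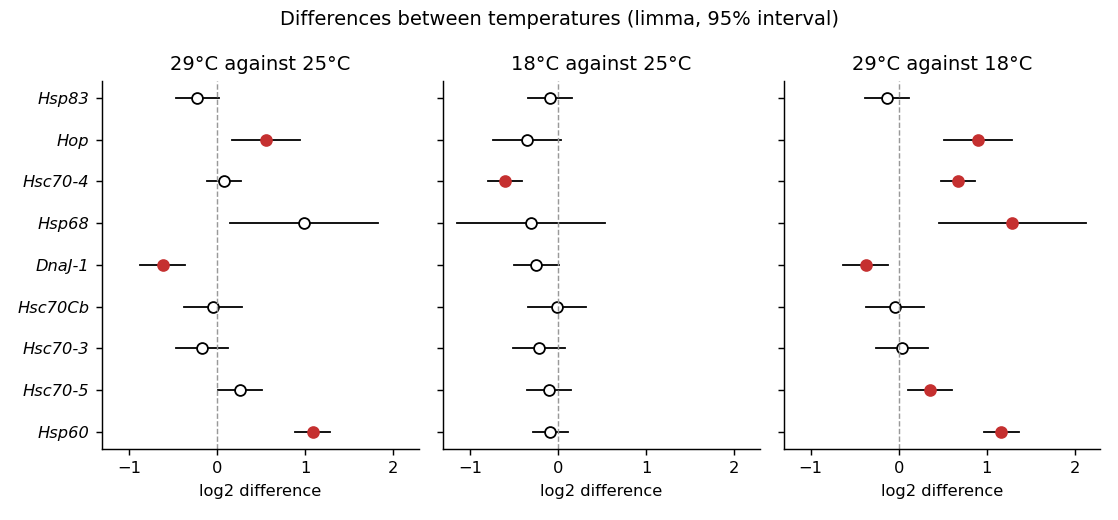
Log2 difference (horizontal axis) of each of the 9 genes in the 3 comparisons between temperatures, with its 95% interval from limma as a line. Filled red points have an adjusted p under 0.05. Hsp60 (1.08) stands to the right and DnaJ-1 (-0.62) to the left between 29°C and 25°C, while only Hsc70-4 (-0.60) is filled between 18°C and 25°C.

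Partner genes were next compared as ratios within a column. The ratios given are of the values as deposited, while the tests added a pseudocount of 1 to both genes. The tests thus depend on the scaling of the columns, slightly for most genes but more for Hsp68, whose values went down to 0.921. Without a pseudocount, an alternative chosen after seeing the data, the same 9 of 18 tests passed. Reads at 3′ ends of different genes may not be captured equally, so only the change of a ratio with temperature is described and not its size. Of 18 exact permutation tests (6 columns against 6, two-sided, smallest possible p 0.00216), 9 had an adjusted p under 0.05. Unlike limma, these tests did not use time point, so columns of the same time were not paired in them. Hop was 9.02% to 17.1% of Hsp83 at 18°C (median 9.97%), 9.80% to 19.6% at 25°C (median 13.0%) and 17.6% to 27.6% at 29°C (median 24.9%). It was higher at 29°C than at 25°C at 5 of 6 time points (exact permutation test, adjusted p = 0.0130) and than at 18°C at 6 of 6 (exact permutation test, adjusted p = 0.00557). The co-chaperone thus differed relative to Hsp90 between 29°C and each of the other temperatures.

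Relative to Hsc70-4, both DnaJ-1 and Hsc70Cb were lower at 29°C than at 18°C. All ratios to Hsc70-4 share this gene, so their tests are not independent. Hsc70-4 itself differed by 0.68 on the log2 scale for 29°C against 18°C and by -0.60 for 18°C against 25°C. Hsc70Cb itself differed by only -0.04 and -0.01, so its ratio changed mostly with Hsc70-4. DnaJ-1 itself differed by -0.37 for 29°C against 18°C, so its ratio there changed with both genes and more with Hsc70-4. DnaJ-1 was 12.7% to 20.2% of Hsc70-4 at 18°C, 10.2% to 16.8% at 25°C and 5.89% to 10.1% at 29°C. It was lower at 29°C than at 25°C and than at 18°C at all 6 time points (exact permutation test, adjusted p = 0.00557 for each). The 18°C ratio was higher than the 25°C ratio at 6 of 6 time points but did not pass the adjustment (exact permutation test, adjusted p = 0.0708). It passed in 2 of 21 alternatives and failed in 19. The passing ones left out the ZT7 column at 18°C (0.0468) or the ZT19 column at 25°C (0.0312), by the same exact test. Hsc70Cb was 3.72% to 7.67% of Hsc70-4 at 18°C, 2.81% to 3.68% at 25°C and 2.28% to 4.05% at 29°C. The 18°C value exceeded the 25°C value at 6 of 6 time points (exact permutation test, adjusted p = 0.00557), and the ratio was lower at 29°C than at 18°C at 6 of 6 (exact permutation test, adjusted p = 0.00974). For 29°C against 25°C the log2 difference of this ratio was -0.13 (exact permutation test, adjusted p = 0.380).

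The ratios to Hsc70-4 of the other Hsp70 genes were less clear. Hsc70-3 was 9.46% to 15.1% of Hsc70-4 at 18°C, 7.15% to 11.7% at 25°C and 7.11% to 9.29% at 29°C. It was lower at 29°C than at 18°C at 6 of 6 time points (exact permutation test, adjusted p = 0.00557). There Hsc70-3 itself differed by 0.04 on the log2 scale and Hsc70-4 by 0.68, so this ratio too changed mostly with Hsc70-4. The ratio did not pass for 18°C against 25°C (0.0506 by the exact test), and it passed in 3 of 21 alternatives and failed in 18. The passing ones left out the ZT15 column at 18°C (0.00974), the ZT3 column at 25°C (0.0468) or the ZT3 column at 29°C (0.0455). The last column is not part of this comparison, and its log2 difference stayed at 0.38. Only the adjustment over all ratio tests changed there. For 29°C against 25°C the ratio did not pass with all columns (exact permutation test, adjusted p = 0.129). It passed in 1 of 21 alternatives, without the ZT23 column at 25°C (0.0468). Hsp68 was 0.130% to 0.710% of Hsc70-4 at 18°C, 0.0396% to 0.661% at 25°C and 0.349% to 0.948% at 29°C, and no comparison of it passed. Of 21 alternatives, 2 passed for 29°C against 25°C and 1 for 29°C against 18°C. Without the ZT3 column at 29°C the exact test gave an adjusted p of 0.0234 and 0.0455 for these comparisons. Without the ZT23 column at 25°C it gave 0.0496 for 29°C against 25°C.

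In mitochondria, Hsp60 was 305% to 513% of Hsc70-5 at 18°C, 323% to 520.1% at 25°C and 602% to 972% at 29°C. No 29°C column overlapped the others (exact permutation test, adjusted p = 0.00557 for each). Between 18°C and 25°C the log2 difference of this ratio was 0.01 (exact permutation test, adjusted p = 0.870). The chaperonin was thus higher at 29°C also relative to the mitochondrial Hsp70, with which it shares imported clients.

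**Figure D3:**
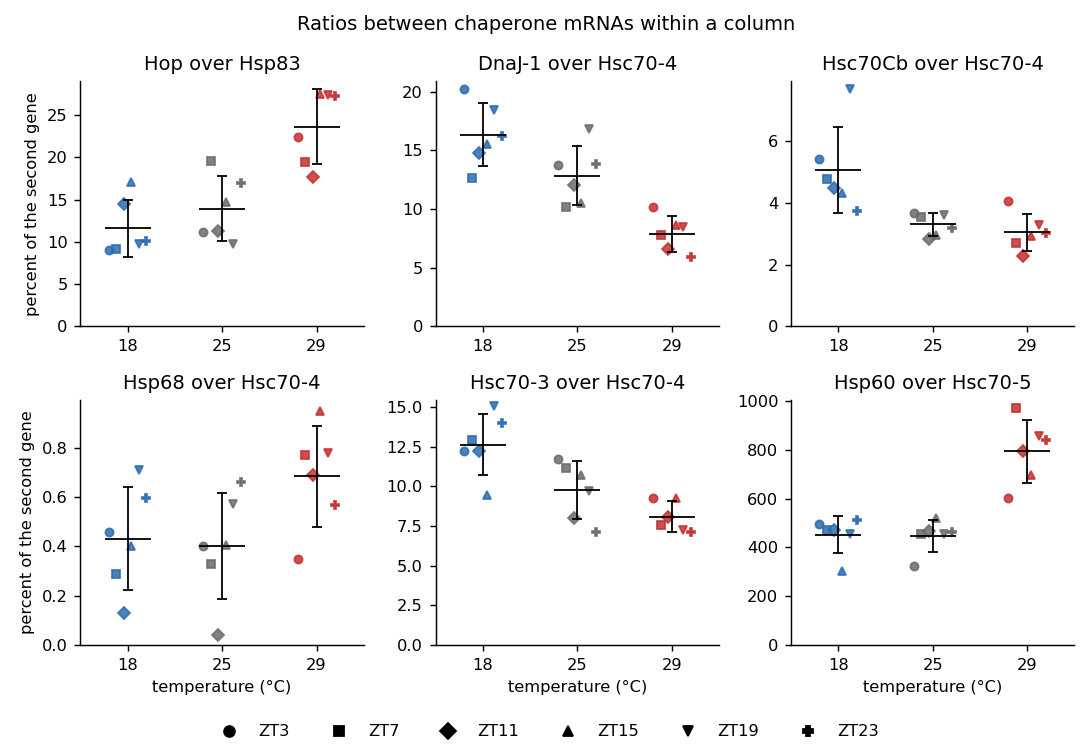
Ratios between partner genes within a column, as percent of the second gene (vertical axes), at the 3 temperatures (horizontal axes). Symbols are time points and black lines the mean ± SD over 6 time points. Hop over Hsp83 averages 23.6% and Hsp60 over Hsc70-5 averages 793% at 29°C, while DnaJ-1 over Hsc70-4 averages 7.89% there, the lowest of the 3 temperatures.

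Other genes of the same systems were described from lists of 42 symbols chosen by function, of which 32 were tested, 7 had too few reads and 3 had no match in the gene names used. Between 29°C and 25°C, 4 of the 32 were called higher (10.6% of all genes) and 1 lower (6.69% of all genes), with a median log2 difference of 0.09 against 0.04 over all genes. Hsp10 (CG11267), the lid of the Hsp60 chamber, had 616 to 749 scaled reads at 29°C (median 640.0), against 270 to 429 at 25°C (median 326). Its 29°C columns were all above its 25°C columns, and its log2 difference was 0.96 (SE 0.12, limma adjusted p = 2.58e-06). Both parts of the mitochondrial chaperonin were thus higher at 29°C. unc-45, a chaperone that works with Hsp90 on myosin, had 33.3 to 53.4 scaled reads at 29°C, against 12.7 to 30.7 at 25°C (1.05, SE 0.26, limma adjusted p = 0.00470). Dpit47, an Hsp90 co-chaperone with TPR repeats, had 46.1 to 74.4 at 29°C, against 18.2 to 54.3 at 25°C (0.83, SE 0.21, limma adjusted p = 0.0060). Of the 10 Hsp90 co-chaperones tested, 3 were called higher and 7 were not called, with a median log2 difference of 0.07. The gene called lower was jdp, a J-domain protein like DnaJ-1, with 295 to 358 scaled reads at 29°C, against 351 to 502 at 25°C (-0.36, SE 0.09, limma adjusted p = 0.00765).

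Between 18°C and 25°C, none of the 32 were called higher by limma (8.07% of all genes) and 4 were called lower (5.32% of all genes), with a median of -0.10 against -0.01 over all genes. Droj2, another J-domain protein, had 207 to 269.5 scaled reads at 18°C, against 283 to 390.1 at 25°C (-0.44, SE 0.10, limma adjusted p = 0.00364). Csp, the cysteine string protein of synaptic vesicles, had 87.5 to 148 at 18°C, against 134 to 189.8 at 25°C (-0.45, SE 0.13, limma adjusted p = 0.0251). Hsp70Ab, a heat-inducible Hsp70, was listed at 0 to 2.79 scaled reads at 18°C, against 1.70 to 13.4 at 25°C (limma adjusted p = 0.0172). At 29°C Hsp70Ab had 9.30 to 25.9. It took 3 reads or fewer in 7 columns and has near-identical copies, so its reads are uncertain. Hsp70Bc, the other inducible copy tested, was not called for 29°C against 25°C, 18°C against 25°C or 29°C against 18°C (limma adjusted p = 0.627, 0.779 and 0.329). Hsp70Aa, Hsp70Ba, Hsp70Bb and Hsp70Bbb had too few reads to be tested.

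Between 29°C and 18°C, 8 of the 32 were called higher (14.7% of all genes) and 2 lower (13.3% of all genes), with a median of 0.11 against 0.06 over all genes. Higher at 29°C were Hsp10 (0.98, SE 0.12, limma adjusted p = 8.38e-07), Hsp70Ab (limma adjusted p = 4.66e-05) and Dpit47 (0.92, SE 0.21, limma adjusted p = 0.00161). Lower at 29°C were jdp (-0.35, SE 0.09, limma adjusted p = 0.00681) and HIP-R, a homologue of the Hsp70-interacting protein Hip with a close copy in the genome (-0.53, SE 0.15, limma adjusted p = 0.0103). Hsf, the heat shock transcription factor, which was singled out after its values were seen, had 44.9 to 65.0 scaled reads at 29°C, against 24.4 to 48.3 at 18°C (0.61, SE 0.19, limma adjusted p = 0.0166).

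**Figure D4:**
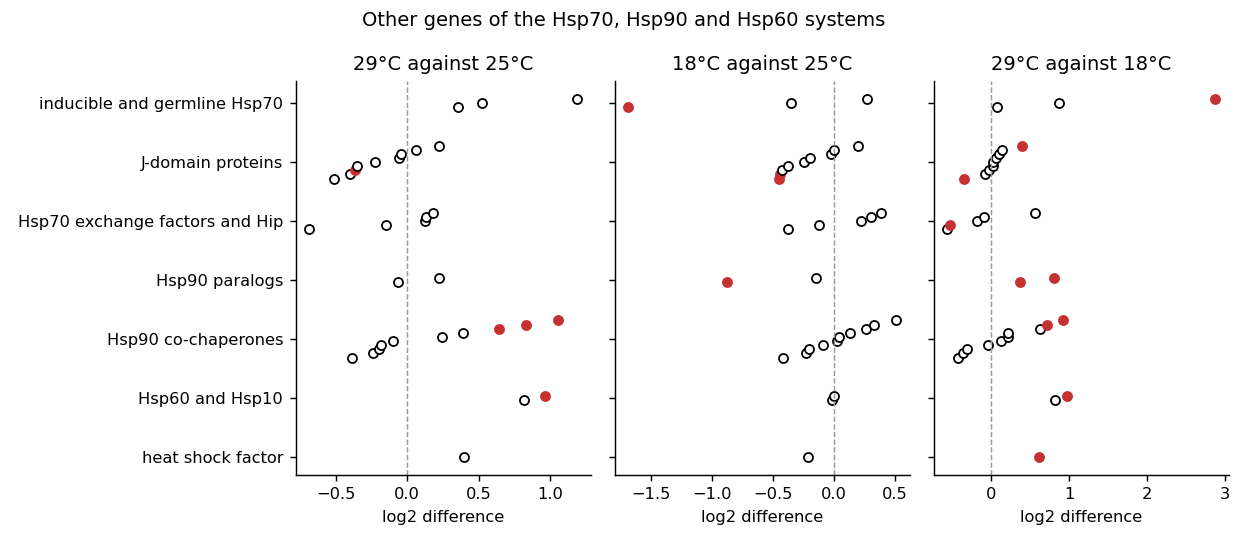
Log2 difference (horizontal axes) of 32 other genes of the Hsp70, Hsp90 and Hsp60 systems, grouped by list, in the 3 comparisons between temperatures. Each circle is 1 gene, and filled red circles have a limma adjusted p under 0.05, 5 of 32 between 29°C and 25°C and 4 of 32 between 18°C and 25°C.

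Genes whose values followed a member over the 18 columns were listed by Pearson correlation among 2731 genes that averaged 50 reads or more per column, as a description, since the columns share temperature, depth and time. DnaJ-1 was followed most closely by 14-3-3zeta (r = 0.87), CG32726 (r = 0.82) and Chc, the clathrin heavy chain (r = 0.80). Hsp83 was followed by CG12990 (r = 0.75), Mms19 (r = 0.74) and Sumo (r = 0.72). For Hsp60, chosen for this after its values were seen, they were EMC4 (r = 0.97), eIF2A (r = 0.96) and CG14629 (r = 0.96). Among the members themselves, the correlation of Hsp60 with Hsc70-5 was 0.63 over all 18 columns and -0.15 after the temperature means were removed. That of Hsp60 with DnaJ-1 was -0.69 and -0.08. Hsp83 with Hsc70-3 had 0.51 and 0.48, and Hsc70-4 with Hsc70-3 had 0.40 and 0.50.

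Time of day was examined last, because the columns were collected around the day. None of the 9 genes was called by limma between the light phase (ZT3, ZT7 and ZT11) and the dark phase (ZT15, ZT19 and ZT23), against 0.273% of all genes tested, and edgeR and DESeq2 called none either. Of all genes 24 were called, but 0 without the ZT7 column at 25°C and 2 without the ZT19 column at 29°C. At an unadjusted p under 0.05, 1 of the 9 passed in limma, against 8.65% of all genes. It was Hsp68, with a mean of 8.79 scaled reads in the light and 12.6 in the dark (-0.80 on the log2 scale, limma adjusted p = 0.495). Hsp83 averaged 375 scaled reads in the light and 330.3 in the dark (0.18, 95% interval -0.02 to 0.38, limma adjusted p = 0.613). The remaining 7 genes had log2 differences between -0.04 and 0.12.

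A daily rhythm with a period of 24 h, fitted jointly to the temperatures, was called for none of the 9 genes in limma, edgeR or DESeq2, against 0.466% of all genes in limma, and none passed at an unadjusted p under 0.05 in limma, against 8.51% of all genes. A difference in rhythm between temperatures was also called for none by these tools, against 0.0228% of all genes in limma. At an unadjusted p under 0.05, 1 of the 9 passed there, against 6.68% of all genes. It was DnaJ-1 (limma adjusted p = 0.728). At 18°C its value was 261 at ZT3 and 251 at ZT23, at 25°C 273 and 320.2, and at 29°C 239 and 145, the highest and lowest columns there. With 1 column per time point, changes over the day smaller than the spread between columns were not detectable here. At 29°C the light columns held 978888 to 1245792 reads on genes and the dark columns 2341140 to 2750250. Phase and depth cannot be told apart at that temperature.

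**Figure D5:**
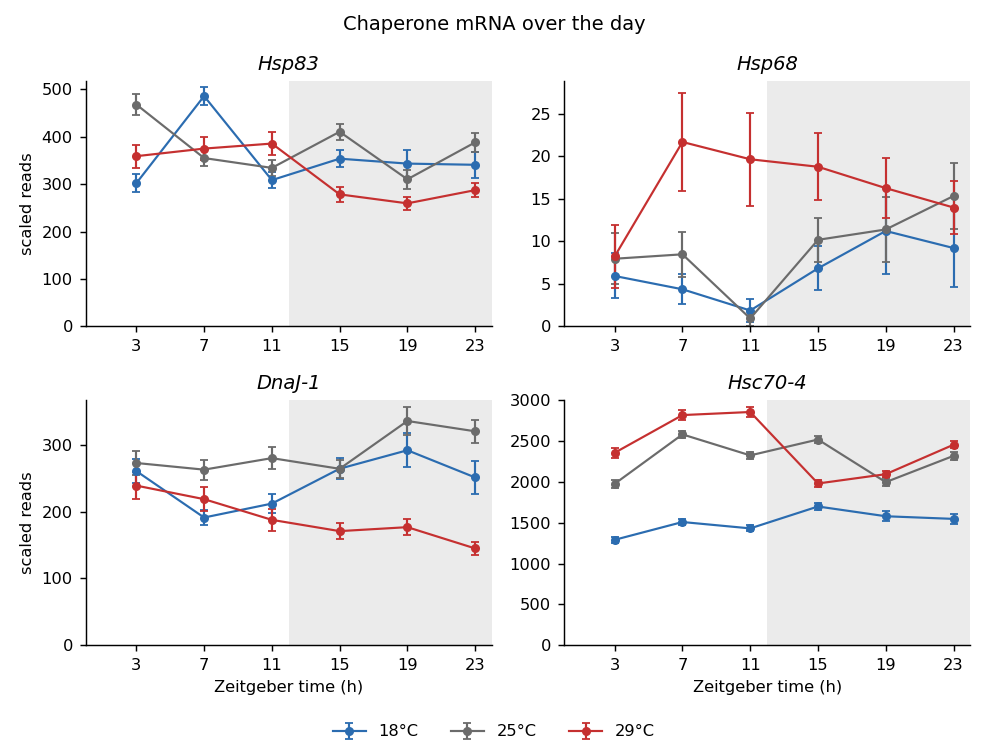
Scaled reads (vertical axes) of Hsp83, Hsp68, DnaJ-1 and Hsc70-4 by Zeitgeber time (horizontal axes), with a line for each temperature. Bars are the counting error of 1 column and the grey area is the dark phase. DnaJ-1 at 29°C has 239 at ZT3 and 145 at ZT23, and Hsp83 has a single high point of 486 at ZT7 and 18°C.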

How the data were processed

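Heads of Canton-S flies at 3 temperatures and 6 time points were profiled by 3′ RNA-seq. The authors deposited a signal table of 21081 transcripts with 18 columns of scaled reads. Dividing the deposited signal by the smallest value of its column gave whole reads (100% of values within 0.001 reads), which edgeR and DESeq2 used. The submitters' processing notes name Bowtie2, TopHat, Cufflinks and dm3, and how 2 libraries became 1 column, the scaling, strand and molecular identifiers are not given in the sources used here. Coordinates follow the table, counted from 1, and strands come from a later annotation. Symbols came from RefSeq (13536 of 14010 genes).

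Low reads were filtered with filterByExpr in edgeR 4.0.16, which left 8791 genes, and log2(value + 1) was fitted in limma 3.58.1 under R 4.3.3, with factors for temperature and time and a trended empirical Bayes step. P-values were adjusted by Benjamini-Hochberg over all genes. A fold change on this scale understates that of low genes. Since the columns hold scaled values and not counts of 36 libraries, limma was the main test, and edgeR (common dispersion 0.0468) and DESeq2 1.42.0 were alternatives. Ratios used exact permutation tests in scipy 1.17.1 (Python 3.11.15), on values with a pseudocount of 1. The fits were also run on simulated independent columns with the same dispersion (0.0468) for every gene. Those columns hold no culture effect and no column that stands apart, so no conclusion about the present data is drawn from them. Labels do not state separate cultures, and the p-values measure the spread between these columns; a shared sequencing pool was not tested.

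The genes and lists were chosen with earlier results of these data known. Named besides the 9 genes were list genes called between temperatures, at most the 3 with the smallest p each way per comparison, and the 3 genes most like Hsp83 and DnaJ-1. Alternatives covered pseudocounts (0.1, 5), scaling, filters, distinct rows, tools, time terms and columns left out. Counting errors cover sampling of reads only. No sequences are printed.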

Additional observations from a re-analysis of the deposited data

Results flagged for a closer look

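Among 27 groups of 6 columns (9 genes at 3 temperatures), 3 had a column set apart from the other 5 by more than Dixon's critical value, where chance alone gives about 1 in 20, or 1.35. Hsp83 had 486 scaled reads at ZT7 and 18°C, and the next highest column at 18°C had 354. Hsc70Cb had 121 scaled reads at ZT19 and 18°C, from 54 reads in one of the shallowest columns, and the next highest had 73.1. Hsc70Cb had 91.5 scaled reads at ZT7 and 25°C, the column with high midgut and flight muscle markers, and the next highest had 74.7. Neither gene was called between temperatures with the deposited scaling, with or without these columns, and with columns scaled to equal library size Hsp83 was called lower at 29°C than at 25°C (-0.41, limma adjusted p = 0.0269).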

How the results depend on the processing

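Across 31 alternatives for each pair of temperatures, limma, edgeR or DESeq2 called 2 to 3 of the 9 genes for 29°C against 25°C, 1 for 18°C against 25°C, and 4 to 6 for 29°C against 18°C. No direction of a called gene reversed. Hsp60, DnaJ-1 (29°C against 25°C), Hsc70-4 and Hop (29°C against 18°C) kept their calls in all of them. Of 18 ratio tests, 9 to 12 passed over 21 alternatives, 1 of them (no pseudocount) chosen after seeing the data. Both sets of alternatives include leaving out single columns of the temperature outside a pair. Such a setting can change the spread or the adjustment but not the log2 difference, so it is a weak check of a call. No alternative called a gene by time of day. Scaling to equal library size moved the median of all genes from 0.04 to -0.13 between 29°C and 25°C and from -0.01 to -0.14 between 18°C and 25°C. With it, the higher calls were 491 of 1582 for 29°C against 25°C (929 of 1517 as deposited) and 449 of 1304 for 18°C against 25°C (709 of 1177 as deposited). Without the ZT7 column at 25°C and the ZT19 column at 29°C, 929 genes were called between 29°C and 25°C, against 1517, and without the ZT19 columns 683 were called between 18°C and 25°C, against 1177. Counts over all genes for time of day were small and moved by more than 1.5 times, from 0 to 41 by phase (main 24), 13 to 84 for the common rhythm (main 41) and 0 to 80 for the rhythm difference (main 2). The cause was not tested. Under the filter of 10 reads in every column Hsp68 was not tested. By replicate number, no paired analysis was possible because the columns carry none. The columns share their 6 time points, which were a factor in limma, and without that factor 2, 1 and 6 of the 9 genes were called for 29°C against 25°C, 18°C against 25°C and 29°C against 18°C, Hop being lost from the first (limma adjusted p = 0.0558). Depth limits Hsp68 (1 to 23 reads per column) and Hop (15 to 112).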
